A study of Mus musculus with 12 samples.

Results

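The response to lipopolysaccharide (LPS) of mouse macrophages pretreated with AdipoAI was measured on 6 of the 12 arrays of the study, by comparing the 3 AdipoAI+LPS arrays with the 3 AdipoAI arrays. RAW264.7 is an established mouse macrophage line, and AdipoAI is a compound that acts at the adiponectin receptors. The AdipoAI cells received the compound for 24 h, and the AdipoAI+LPS cells received it for 24 h and then LPS from E. coli at 100 ng/ml for 6 h. The other 6 arrays gave the usual LPS response and came from cells kept in DMSO for 24 h or labelled as LPS for 6 h, again 3 each. The labels do not say what the LPS cells received before LPS, give no dose of AdipoAI, and do not tell whether the replicates were separate cultures, so the p-values measure the spread between these samples, which may be technical. They also list no further 6 h for the DMSO and AdipoAI cells. An effect of added time in culture therefore cannot be told apart from that of LPS, in the LPS changes or in their difference. One line stands for all groups, so nothing here speaks for primary macrophages.

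LPS is a component of the outer membrane of Gram-negative bacteria that macrophages sense through Toll-like receptor 4. Its signals reach the NF-kappaB and IRF factors and, through induced interferon, the STAT factors. These switch on genes for cytokines, chemokines and antigen presentation, while many genes of the resting macrophage are lowered. Adiponectin, the hormone whose receptors AdipoAI was designed for, is known for dampening inflammatory responses of macrophages. The comparison asked how much of the LPS response was kept, damped or enlarged once the cells had met AdipoAI.

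The arrays were 1-colour arrays that carry probes for mouse mRNAs and long noncoding RNAs. The number of probes well above background on an array lay between 29298 and 32969, with 29799, 30217 and 29821 on the AdipoAI arrays and 31205, 31873 and 30172 on the AdipoAI+LPS arrays. Of 60694 probes, 31056 (51.2%) passed that limit on 3 or more of the 6 arrays with AdipoAI and were tested, and 25285 of them were so on all 12 arrays. A further 2636 probes were above it on 3 or more of the 12 arrays but not on 3 of these 6, and 380 of them (14.4%), of which 170 were higher with LPS, were called in LPS vs. DMSO, so the probes tested leave out a part of the usual response. Nearly all probes carry only identifiers of the array maker, which nothing used here pairs with genes, so the macrophage identity of the cells could not be checked against marker genes. The exceptions were 15 probes with RefSeq names and 1827 probes named as lincRNAs (long intergenic noncoding RNAs), of which 14 and 329 were tested.

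The arrays were scanned on 2 occasions. All DMSO and LPS arrays and replicates 1 and 2 of AdipoAI were in the first scan, and replicate 3 of AdipoAI and the 3 AdipoAI+LPS arrays were in the second. AdipoAI replicate 3 differed from replicates 1 and 2 at an adjusted p under 0.05 in limma in 36 probes, at an unadjusted p under 0.05 in 2682, and at a log2 difference of at least 1.5 with that unadjusted p in 270, with a median size of 0.212 over all probes tested. The first scan holds no AdipoAI+LPS array, so within a scan the LPS change after AdipoAI rests on AdipoAI replicate 3 alone. For the named probes, values from this comparison are given below wherever they change a call.

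With LPS the RNA of AdipoAI-pretreated macrophages changed broadly, and mostly in the same direction as without AdipoAI. At the threshold of the methods, a log2 fold change of 1.5 or more in either direction with an unadjusted p under 0.05 in limma, 2097 of the 31056 probes tested (6.75%) changed in AdipoAI+LPS vs. AdipoAI, 1282 higher and 815 lower. Of these calls 61.1% were higher, and 76.7% were with normexp background correction. At an adjusted p under 0.05, 10641 probes (34.3%) changed, 4417 higher and 6224 lower. The same probes gave more calls without AdipoAI, 2920 (9.4%) at the methods' threshold in LPS vs. DMSO, with 1500 higher and 1420 lower, and 12554 (40.4%) at an adjusted p under 0.05. Changes of at least 16-fold were found in 178 probes that were higher and 4 that were lower after AdipoAI, against 232 and 45 without it. Among the probes well above background on all 12 arrays these counts were 90 and 1 against 128 and 20.

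The probes called on both sides moved the same way with few exceptions. Of the calls at the methods' threshold, 1712 were shared with the same direction, which was 81.6% of the calls after AdipoAI and 58.6% of those without it, and 2 were shared with opposite directions. At an adjusted p under 0.05, 8637 probes were called on both sides, of which 8588 (99.4%) had the same direction. Of the 100 largest rises after AdipoAI 65 were among the 100 largest rises without it, and 60 of the 100 largest falls were shared. The 2 comparisons share no array.

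The line fitted through all probes tested had a slope below 1. Orthogonal regression of the LPS change after AdipoAI on the LPS change without it, both on the log2 scale and with equal error on both axes, gave a slope of 0.8506 over all probes tested. Least squares gave 0.7602 and, inverted, 0.9903, so how far the slope lay below 1 depended on the method. The orthogonal slopes of the single AdipoAI+LPS arrays were 0.9305, 0.8962 and 0.8736, all below 1. They share the AdipoAI mean and the LPS change without AdipoAI, so their SD of 0.0287 (n = 3) leaves out the spread of those arrays. A single array also has more error than a mean of 3, so the error on both axes was not equal for these slopes. Pearson's r was 0.876 and Spearman's rho 0.792 across the 31056 probes, which share arrays and are not independent replicates. The median standard error of an LPS change was 0.177 and that of the difference between both changes was 0.251.

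**Figure D1:**
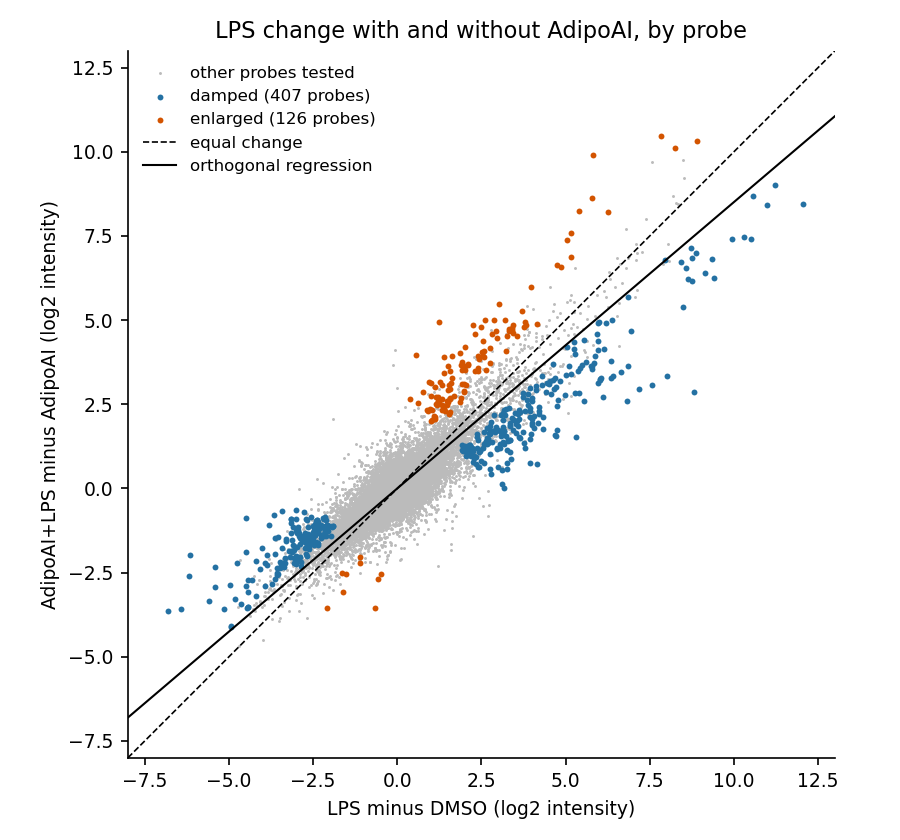
Log2 intensity change in AdipoAI+LPS vs. AdipoAI (vertical axis) against that in LPS vs. DMSO (horizontal axis), 1 point per probe tested, with damped probes in blue and enlarged probes in orange. The solid line is the orthogonal regression (slope 0.8506) and the dashed line marks equal changes, and the 407 damped probes lie on its inner side at both ends while most of the 126 enlarged probes lie among the rises.

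LPS-responsive probes were taken as those whose mean LPS change over both pretreatments passed the methods' threshold. There were 2423 of them (7.8% of the probes tested), 1374 raised and 1049 lowered. Among the probes tested this choice favours neither LPS change, but the filter before it used only the arrays with AdipoAI. On the AdipoAI+LPS arrays the mean log2 rise of the raised probes above the mean of the AdipoAI arrays was 2.79, 2.65 and 2.56, a mean of 2.67 ± 0.12 (SD, n = 3). On the LPS arrays the mean rise above DMSO was 2.89, 2.97 and 3.00, a mean of 2.95 ± 0.057. For the lowered probes the values were -1.83, -1.92 and -1.82 on the AdipoAI+LPS arrays and -2.32, -2.41 and -2.38 on the LPS arrays, with means of -1.86 ± 0.055 and -2.37 ± 0.046. In neither direction did the arrays with and without AdipoAI overlap. Against AdipoAI replicate 3, of the same scan, the mean rises were 2.73, 2.59 and 2.49 and the mean falls -1.74, -1.82 and -1.72.

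**Figure D2:**
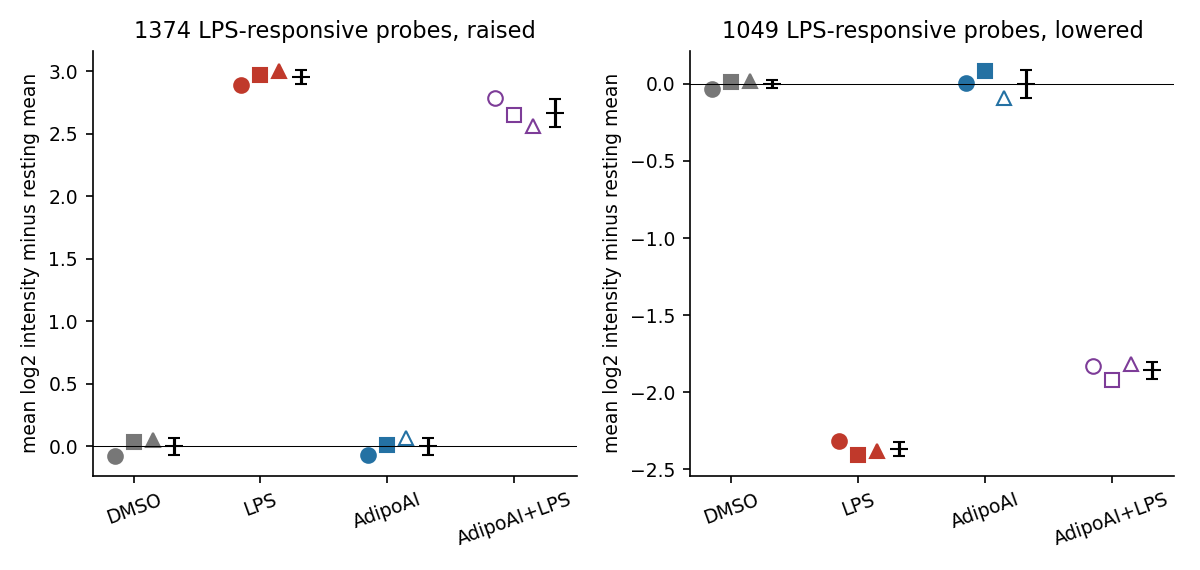
Mean log2 intensity of the 1374 raised (left) and 1049 lowered (right) LPS-responsive probes on each array, minus the mean of the resting arrays of the same pretreatment (DMSO or AdipoAI). Circles, squares and triangles are replicates 1, 2 and 3, open symbols are arrays of the second scan, and bars give mean ± SD (n = 3); the AdipoAI+LPS arrays lie nearer to 0 than the LPS arrays in both panels.

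A smaller response after AdipoAI was found in a larger share of the falls than of the rises. The LPS change after AdipoAI was smaller than without it in 854 of the 1049 lowered probes (81.4%) and in 852 of the 1374 raised probes (62%), whatever the test of the single probe. As a ratio of the LPS change after AdipoAI to that without it, both as log2 differences, the median was 78.8% (quartiles 66.1% and 92.4%) for lowered and 90% (quartiles 70.2% and 114%) for raised probes. The median ratio of the raised probes depended on how they were chosen, being 0.8007 when chosen on LPS vs. DMSO alone and 0.996 when chosen on AdipoAI+LPS vs. AdipoAI alone. For the lowered probes these values were 0.7345 and 0.8799. With a filter on 3 or more of all 12 arrays the median ratios were 0.8727 for raised and 0.7846 for lowered probes. Whether falls and rises differed in this was not tested, because probes are not replicates.

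The difference between both LPS changes, called the interaction here, passed an adjusted p of 0.05 in limma in 1029 of the 31056 probes (3.31%), with the LPS change higher after AdipoAI in 532 and lower in 497. It was called in 657 without DMSO replicate 2 and in 661 without LPS replicate 3. The change had the same sign and was smaller after AdipoAI in 652 of them (63.4%), the same sign and larger in 189 (18.4%), and opposite signs in 188 (18.3%). Both changes had an adjusted p under 0.05 in opposite directions in 49. In 56 probes, 33 of them rises, the usual change passed the methods' threshold and the change after AdipoAI had an adjusted p of 0.05 or more. The reverse held in 24 probes, of which 17 were rises.

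Of the 2423 LPS-responsive probes, 407 (16.8%) were damped, meaning that the interaction was called and the change was smaller after AdipoAI with the same sign. Another 126 (5.2%) were enlarged, 2 had changes of opposite sign, and 1888 (77.9%) were not shown to differ, which does not make their responses equal. With a filter on 3 or more of all 12 arrays there were 2700 responsive probes, with 432 damped, 118 enlarged and 7 of opposite sign. Damping was about as frequent in both directions, with 236 of the 1374 raised probes (17.2%) and 171 of the 1049 lowered probes (16.3%). Without DMSO replicate 2 the damped falls numbered 106, and with any 1 array left out the damped rises numbered at least 181. Of the damped probes, 177 of the 236 raised and 132 of the 171 lowered were well above background on all 12 arrays. Enlarged responses were found in 117 raised probes (8.52%) and 9 lowered probes (0.858%). Outside the LPS-responsive probes the interaction was called in 494 of 28633 (1.73%). With the scan as a block, which for these contrasts is the comparison against AdipoAI replicate 3, the interaction was called in 740 probes, of which 567 were among the 1029. By that fit 302 probes were damped and 94 enlarged, of which 271 and 75 were among those above.

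Calls of the interaction grew with the size of the response. Among probes raised by a mean log2 change between 1 and 1.5, 66 of 802 (8.23%) had a smaller rise after AdipoAI by the interaction and 19 (2.37%) a larger one. Above a mean log2 change of 4 these were 66 of 191 (34.6%) and 26 (13.6%). Among lowered probes the shares with a smaller fall ran from 63 of 1576 (4%) between 1 and 1.5 to 22 of 82 (26.8%) between 3 and 4, and were 11 of 16 (68.8%) in the thinly filled range above 4. The median over probes of the ratio of both LPS changes followed no such course, lying between 87.3% and 92.5% in the 5 ranges of rises and between 71.1% and 81.8% in those of falls, with the lowest value of the falls in the range of 16 probes and 78.6% as the lowest of the others.

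**Figure D3:**
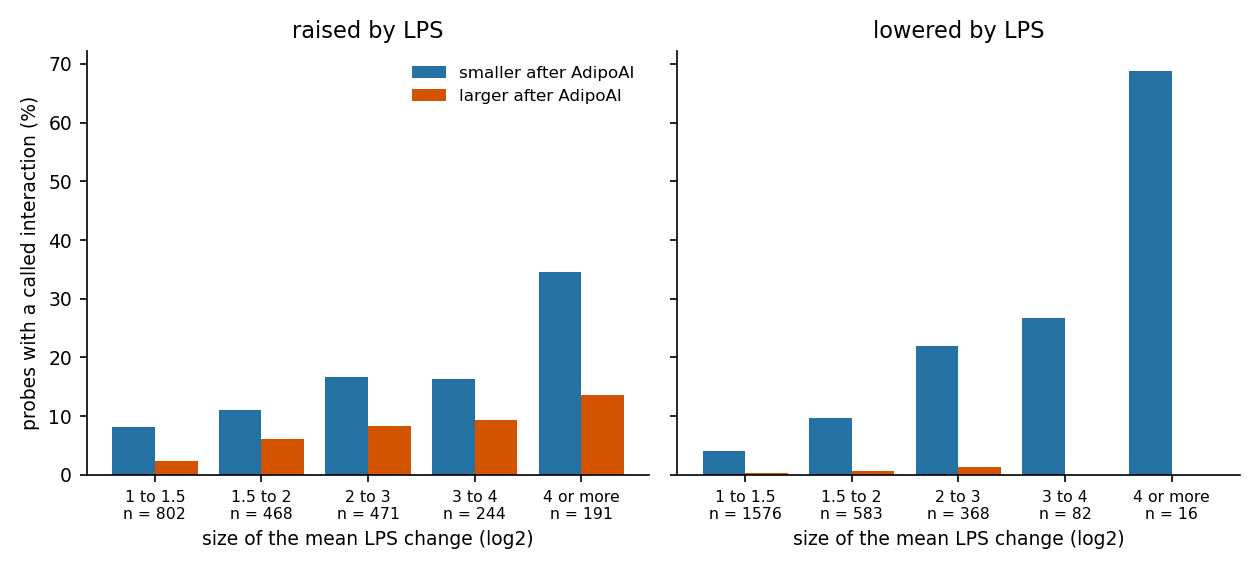
Share of probes (%) whose LPS change was smaller (blue) or larger (orange) after AdipoAI at an adjusted interaction p under 0.05, by the size of the mean LPS change over both pretreatments (log2), for raised (left) and lowered (right) probes, with the number of probes under each pair of bars. Smaller responses outnumber larger ones in every range, and no larger fall was called above a size of 3.

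The LPS-responsive probes of each direction were also split by mean intensity into 3 groups of like size. In the brightest group of raised probes the median ratio of LPS changes was 84.3% and 116 were damped, against 92.6% and 47 in the dimmest group. For lowered probes the values were 76% and 97 against 81% and 21.

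The damped rises started higher and ended lower after AdipoAI. Their median log2 intensity was 7.02, 7.17 and 7.24 on the AdipoAI arrays and 9.79, 9.69 and 9.77 on the AdipoAI+LPS arrays, against 5.87, 6.05 and 6.13 with DMSO and 10.64, 10.54 and 10.59 with LPS. The median rise of these 236 probes was 1.94 after AdipoAI and 3.63 without it. AdipoAI exceeded DMSO in 194 of them and AdipoAI+LPS lay below LPS in 185. In 110 of the 236 (46.6%) the larger part of the difference lay in the resting level and in the other 126 in the level with LPS. These classes were chosen on the same contrasts, so the levels are a description.

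The damped falls showed the mirror image, with most of the difference after LPS. Their median log2 intensity was 8.9, 8.9 and 8.8 with AdipoAI and 7.12, 7 and 7.14 with AdipoAI+LPS, against 9.25, 9.1 and 9.09 with DMSO and 6.03, 5.79 and 6.05 with LPS. AdipoAI+LPS lay above LPS in 159 of the 171 probes and AdipoAI below DMSO in 127. The median fall was -1.5 after AdipoAI and -2.87 without it.

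The enlarged rises differed mainly at rest. Their median log2 intensity was 5.43, 5.7 and 5.47 with AdipoAI and 6.36, 6.27 and 6.4 with DMSO, and after LPS it was 9.68, 9.57 and 9.69 with AdipoAI and 9.26, 9.26 and 9.08 without. AdipoAI lay below DMSO in 101 of the 117 probes, and the larger part of the difference lay in the resting level in 78 (66.7%). The median rise was 3.59 after AdipoAI and 1.99 without it. Of the 117 probes, 82 were well above background on all 12 arrays, and the part of dim resting signals in the others was not tested. The 9 enlarged falls instead ended lower, with AdipoAI+LPS below LPS in all 9, and 4 of them were well above background on all 12 arrays.

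**Figure D4:**
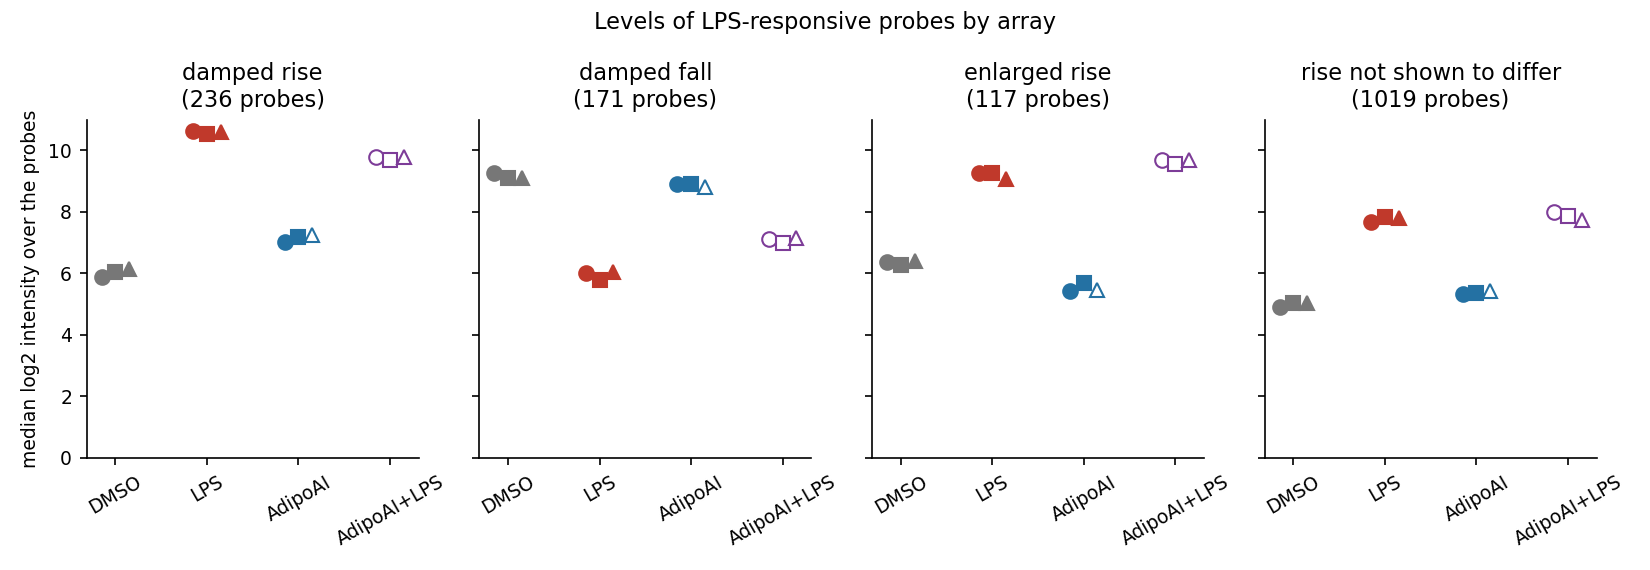
Median log2 intensity on each array of the damped rises, damped falls, enlarged rises and rises not shown to differ, with circles, squares and triangles for replicates 1, 2 and 3 and open symbols for arrays of the second scan. Damped rises run from a higher resting level to a lower level with LPS after AdipoAI (from 7.02 to 7.24 up to between 9.69 and 9.79), and enlarged rises start lower (between 5.43 and 5.7).

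Some probes crossed the background with LPS. After AdipoAI, 599 probes were well above background on no AdipoAI array and on all 3 AdipoAI+LPS arrays, against 401 that did so between DMSO and LPS. Both sets shared 166 probes, 27.7% of the first and 41.4% of the second. Of the 599, 309 were already well above background on at least 1 DMSO array and 77 on no LPS array, and all but one of the DMSO arrays had more probes above background than any AdipoAI array. Set against the lowest signal above background, the rises of these 599 were at least 1.54-fold at the median and at least 503-fold at the highest, with bounds of 2-fold or more in 208 and of 8-fold or more in 59. Of the 401 probes that LPS brought above background without AdipoAI, 249 were so on all 3 AdipoAI+LPS arrays, 85 on 1 or 2 and 67 on none. The falls below background were fewer after AdipoAI, 291 against 643, and shared 147 probes, 50.5% of the first and 22.9% of the second. Probes above background numbered 29799, 30217 and 29821 with AdipoAI and 31205, 31873 and 30172 with AdipoAI+LPS. With DMSO they numbered 32969, 31902 and 29936 and with LPS 31127, 32147 and 29298. The part of these array-wide numbers in the counts of falls was not tested, and no fold bound was set for the falls.

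Of the probes named only by the maker's identifiers, 2 that rose and 2 that fell are given, chosen among those well above background on all 6 arrays with AdipoAI. The largest rise after AdipoAI was that of ASMM10P049894, with log2 intensities of 5.43, 6.16 and 5.86 with AdipoAI and 16.11, 16.27 and 16.45 with AdipoAI+LPS. Its log2 fold change was 10.46 ± 0.19 (SE, adjusted p in limma 4.43e-11), a 1410-fold rise, against 7.84 without AdipoAI, where DMSO gave 7.18, 7.56 and 7.53 and LPS 15.42, 15.30 and 15.05. The resting level was lower and the level with LPS higher after AdipoAI, with no overlap of the arrays, and the interaction was 2.62 ± 0.27 (adjusted p in limma 0.000492).

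The most damped rise was that of ASMM10P042364. It went from 5.59, 6.23 and 6.36 with AdipoAI to 8.98, 8.80 and 9.01 with AdipoAI+LPS, a log2 fold change of 2.87 ± 0.24, and from 3.48, 3.90 and 4.37 with DMSO to 12.75, 12.58 and 12.86 with LPS, a log2 fold change of 8.81. The interaction was -5.94 ± 0.34 (adjusted p in limma 1.61e-05). The probe was chosen for the size of this interaction, which was -4.41 with normexp. Every AdipoAI array lay above every DMSO array, and every AdipoAI+LPS array below every LPS array.

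The largest fall, of ASMM10P030040, went from 9.68, 9.67 and 9.30 with AdipoAI to 5.51, 5.44 and 5.36 with AdipoAI+LPS, which was 17.3-fold. Its log2 fold change was -4.11 ± 0.14 after AdipoAI and -4.93 without it. The interaction of 0.82 ± 0.20 (adjusted p in limma 0.0489) lost its call when any of 11 of the 12 arrays was left out, with adjusted p between 0.0375 and 0.133 over the 12. The fall of ASMM10P021712, chosen for the largest fitted damping of a fall, went from 5.91, 6.34 and 5.69 with AdipoAI to 5.17, 5.11 and 5.01, a log2 fold change of -0.89 ± 0.24 (adjusted p in limma 0.0131) that was -0.59 (adjusted p 0.239) with the scan as a block and had an adjusted p of 0.0546 without AdipoAI replicate 2. Without AdipoAI this probe fell from 6.01, 6.10 and 6.05 to a level not well above background on any LPS array. Taken against the lowest signal well above background on each array, as for the 599 probes, that fall was at least 6.24-fold. This bound was not tested, and the adjusted p in limma of 7.54e-08 belongs to the fitted fall. Against that bound the interaction was at least 1.76 on the log2 scale, so its fitted value of 3.61, on which its rank as the most damped fall rests, is no measured size. That value was 0.63 with normexp and 2.85 from the authors' processed values.

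Among the 14 tested probes with RefSeq names, many of them for genes used as references between samples, LPS changed 3 after AdipoAI and 8 without it, a difference that was not tested as such. At an adjusted p under 0.05 B2m and Gk rose and Tuba1b fell after AdipoAI, which is 3 of 14 beside 34.3% of all probes tested. Without AdipoAI Actb, B2m, Gk and Tfrc rose and G6pd2, Gusb, Hprt and Tuba1b fell, 8 of 14 beside 40.4%. The LPS change was smaller in size after AdipoAI in 10 of the 14. The median size of the log2 change was 0.12 after AdipoAI and 0.35 without it, against 0.34 and 0.41 over all probes tested. The interaction was called for Gk and Gusb, 2 of 14 beside 3.31%. The probe for Ldhal6b, a lactate dehydrogenase-like gene, was not well above background on any of the 12 arrays.

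The regions before the starts of B2m, Gk and Gusb are shown because these genes gave a rise on both sides and the called interactions. They are the 250 bases before the RefSeq start, taken from assembly GRCm38.p6 and written 5′ to 3′ in the direction of the gene. They lie at chr2:122147437-122147686 (plus strand), chrX:85776820-85777069 (minus strand) and chr5:130003050-130003299 (minus strand). Capitals mark matches on either strand to the NF-kappaB consensus, to a GAAA repeat with any 2 bases between its copies, a core of the sites of interferon-regulated factors, and to the E-box CACGTG.
B2m: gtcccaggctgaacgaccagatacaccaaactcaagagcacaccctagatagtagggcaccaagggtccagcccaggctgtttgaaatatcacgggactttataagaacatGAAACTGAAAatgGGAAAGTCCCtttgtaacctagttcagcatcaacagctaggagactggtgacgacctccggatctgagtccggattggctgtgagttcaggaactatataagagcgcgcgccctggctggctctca
Gk: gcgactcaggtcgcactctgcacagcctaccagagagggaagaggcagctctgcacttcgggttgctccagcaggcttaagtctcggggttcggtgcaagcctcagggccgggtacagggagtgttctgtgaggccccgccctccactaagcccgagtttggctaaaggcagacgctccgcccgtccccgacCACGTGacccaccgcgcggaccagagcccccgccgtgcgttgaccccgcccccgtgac
Gusb: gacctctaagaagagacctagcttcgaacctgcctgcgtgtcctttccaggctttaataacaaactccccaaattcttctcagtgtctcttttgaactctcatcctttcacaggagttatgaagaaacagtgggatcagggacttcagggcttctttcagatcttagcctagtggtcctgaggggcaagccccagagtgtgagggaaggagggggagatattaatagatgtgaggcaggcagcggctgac
B2m held GAAACTGAAA from 139 to 130 bases before the start and, on the opposite strand, an NF-kappaB match from 126 to 117 bases before it, with no overlap. Gk held CACGTG from 58 to 53 bases before the start, and the window of Gusb held none of the 3 motifs. Of 32851 windows of this length, 7.25% held the NF-kappaB consensus, 2.98% the GAAA repeat and 6.02% CACGTG, so a match is a description of the letters and no evidence of a bound site.

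B2m, the light chain of MHC class I, rose with LPS on both sides. It gave log2 intensities of 15.15, 15.17 and 15.18 with AdipoAI and 15.80, 15.77 and 15.79 with AdipoAI+LPS. The levels with DMSO were 15.21, 15.37 and 15.46 and those with LPS 16, 15.66 and 15.92. Resting and stimulated arrays did not overlap on either side. The log2 rise was 0.62 ± 0.11 after AdipoAI (SE, adjusted p in limma 0.00139) and 0.51 ± 0.11 without it. The interaction was 0.11, with 95% limits of -0.20 and 0.42 (adjusted p in limma 0.842).

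Gk, the glycerol kinase that feeds glycerol into lipid and carbohydrate metabolism, rose less after AdipoAI. It gave 6.18, 5.82 and 6.12 with AdipoAI and 6.92, 6.80 and 6.68 with AdipoAI+LPS, against 5.79, 5.80 and 5.78 with DMSO and 7.27, 7.23 and 7.43 with LPS. Every AdipoAI+LPS array lay below every LPS array and above every AdipoAI array. The log2 rise was 0.76 ± 0.12 (adjusted p in limma 0.000531), 1.7-fold, after AdipoAI and 1.52 ± 0.12, 2.87-fold, without it. The interaction of -0.76 ± 0.17 (adjusted p in limma 0.0378) was lost without any of 10 of the 12 arrays, with adjusted p between 0.0174 and 0.106, and had an adjusted p of 0.0842 with the scan as a block.

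Gusb, the lysosomal enzyme beta-glucuronidase, fell with LPS and was not shown to fall after AdipoAI. It gave 14.49, 14.36 and 14.34 with DMSO and 13.56, 13.46 and 13.44 with LPS, a log2 fold change of -0.91 ± 0.098. After AdipoAI it gave 14.72, 14.78 and 14.85 at rest and 14.49, 14.63 and 14.65 with LPS, a log2 fold change of -0.19 with 95% limits of -0.38 and 0.00 (adjusted p in limma 0.163). The AdipoAI+LPS arrays were all above the LPS arrays by far more than the spread of either. The interaction was 0.72 ± 0.14 (adjusted p in limma 0.0165), and it was no longer called in the fit with the scan (adjusted p 0.0916) or without LPS replicate 3 (0.0556).

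Tuba1b, an alpha-tubulin, fell by 0.39 ± 0.085 on the log2 scale after AdipoAI (adjusted p in limma 0.00392) from 17.43, 17.51 and 17.47 to 17.06, 17.05 and 17.11. Without AdipoAI it fell by 0.31, and the interaction was -0.08 (adjusted p in limma 0.847). The fall after AdipoAI had an adjusted p of 0.0569 when arrays were scaled to their 75th percentile. Close copies of Tuba1b, as of Gapdh, Ppia, Rpl13a and G6pd2, may share its probe, so these values are uncertain as to the gene.

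Tfrc, the transferrin receptor for iron uptake, rose without AdipoAI from 14.96, 14.63 and 14.73 to 15.28, 15.28 and 15.42. After AdipoAI its resting level was already at 15.42, 15.60 and 15.52, and with LPS it was at 15.55, 15.40 and 15.61, which overlapped. The log2 change was 0.01 after AdipoAI, with 95% limits of -0.22 and 0.24, and 0.56 ± 0.12 without it (adjusted p in limma 0.00269). The interaction of -0.55 ± 0.17 was not called (adjusted p in limma 0.121), but was with a trended and robust variance model (0.0354) and with normexp (0.034).

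Actb, the cytoskeletal beta-actin, gave 15.34, 15.47 and 15.29 with AdipoAI and 15.64, 15.54 and 15.45 with AdipoAI+LPS, which overlapped. Its log2 change of 0.17 (95% limits -0.09 and 0.44) stood beside 0.51 without AdipoAI, and the interaction of -0.34 was not called (adjusted p in limma 0.486). Hprt, an enzyme of purine salvage, changed by -0.14 (95% limits -0.36 and 0.09) after AdipoAI and fell by 0.39 without it. G6pd2, a copy of glucose-6-phosphate dehydrogenase, changed by -0.33 (adjusted p in limma 0.0761) after AdipoAI and fell by 0.51 without it. Of the remaining 6 genes, none was called on either side: Gapdh of glycolysis, Hsp90ab1 and Ppia of protein folding, Rpl13a of the ribosome, the RNA-binding Nono and the transcription factor Tbp lay between -0.11 and 0.06 after AdipoAI.

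**Figure D5:**
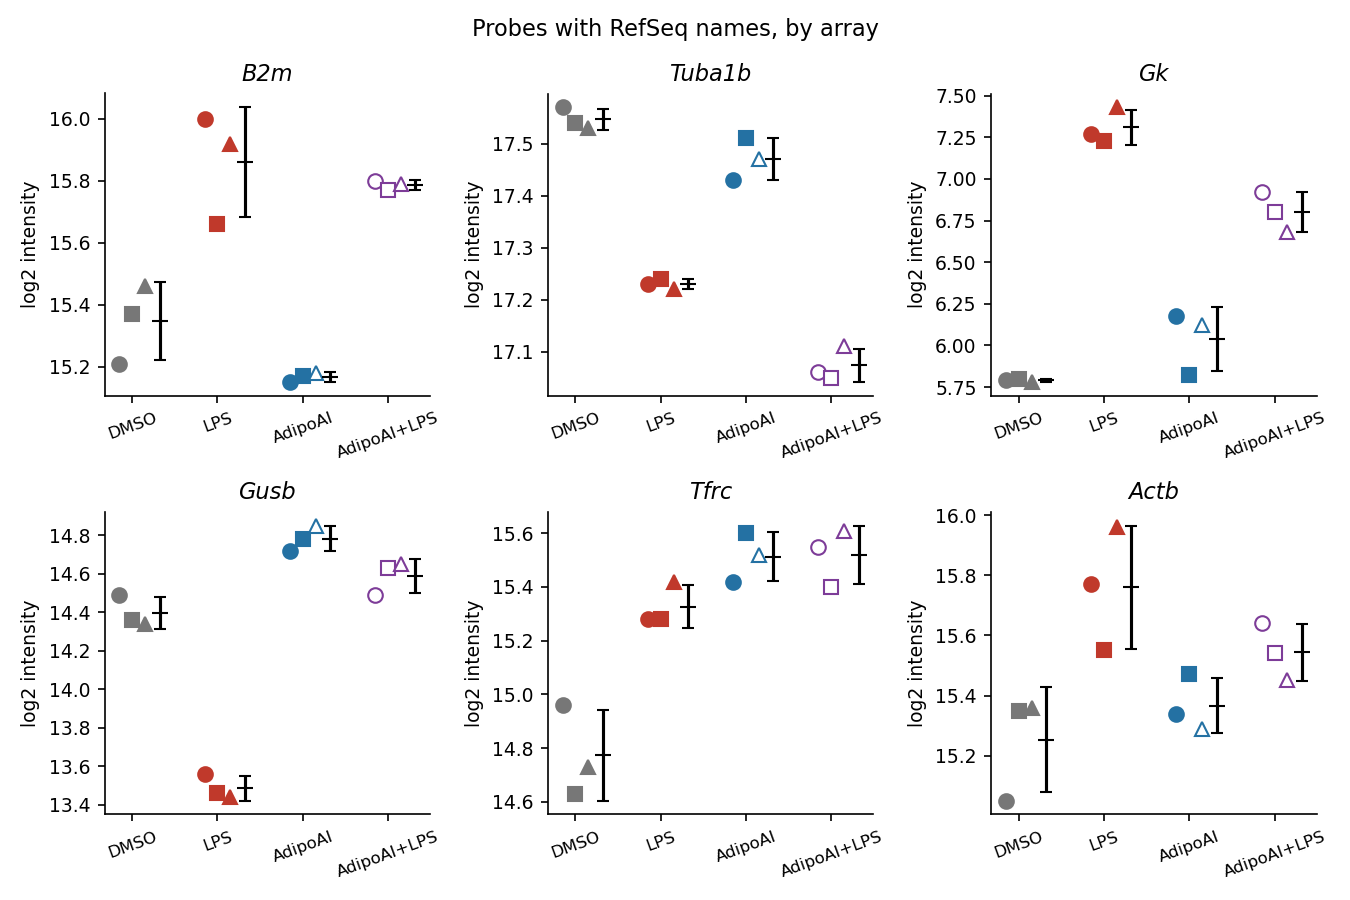
Log2 intensity of the probes for B2m, Tuba1b, Gk, Gusb, Tfrc and Actb on each array, with circles, squares and triangles for replicates 1, 2 and 3, open symbols for arrays of the second scan, and bars for mean ± SD (n = 3). The vertical axes differ between panels; B2m rises by a like amount on both sides (0.62 and 0.51), while Gusb falls between DMSO and LPS and stays between 14.49 and 14.85 on the AdipoAI and AdipoAI+LPS arrays.

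The lincRNA-named probes past the methods' threshold after AdipoAI all rose, but with the scan as a block mouselincRNA1559-_P1 fell past its fold limit. At the methods' threshold 18 of the 329 tested (5.47%, beside 6.75% of all probes) changed after AdipoAI, 18 higher and none lower. Of the calls among all probes, 61.1% were higher after AdipoAI and 51.4% without it. A dim probe could pass the filter through the 3 AdipoAI+LPS arrays alone, which favours a rise, and how many of the 18 did so was not counted. At an adjusted p under 0.05, 59 (17.9%, beside 34.3%) changed. Without AdipoAI 21 (6.38%, beside 9.4% of all probes) passed the methods' threshold, 18 of them higher, and 87 (26.4%, beside 40.4%) the adjusted one. Of 22 that were LPS-responsive, 19 raised and 3 lowered, 1 was damped (4.55%, beside 16.8% of all responsive probes), none was enlarged (beside 5.2%) and 21 were not shown to differ (95.5%, beside 77.9%). The interaction was called in 2 of the 329 (0.608%, beside 3.31%).

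Of the 3 largest rises, that of humanlincRNA0750-_P1 was the most even. It went from 3.59, 4.33 and 3.93 with AdipoAI to 7.48, 7.03 and 7.46 with AdipoAI+LPS, a log2 fold change of 3.37 ± 0.22 (adjusted p in limma 5.8e-07), against 3.12 without AdipoAI. The probe mouselincRNA1040+_P1 went from 6.02, 6.36 and 7.12 to 11.56, 10.57 and 8.26. Its log2 fold change of 3.63 ± 0.81 (adjusted p in limma 0.00482) dropped to 3.01 in the fit with the scan (adjusted p 0.0995), and its stimulated arrays spread over more than 3 log2 units. The probe humanlincRNA1094-_P1 went from 7.38, 7.27 and 8.38 to 12.55, 10.41 and 10.59, a log2 fold change of 3.51 ± 0.52. With normexp these rises were 1.63 for humanlincRNA0750-_P1, 3.06 for mouselincRNA1040+_P1 and 3.17 for humanlincRNA1094-_P1. The names give no place in the genome, so none is stated.

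The 3 largest falls among the lincRNA-named probes were smaller than these rises. The probe mouselincRNA1559-_P1 went from 5.88, 5.83 and 6.10 with AdipoAI to 4.21, 4.46 and 4.72 with AdipoAI+LPS, a log2 fold change of -1.47 ± 0.15 against -1.67 without AdipoAI. With the scan as a block its change after AdipoAI was -1.64, past the fold limit of the methods' threshold. The probe mouselincRNA1244+_P1 fell by 1.33 ± 0.11 after AdipoAI and by 1.81 without it, and humanlincRNA1728-_P1 by 0.78 ± 0.13 and by 1.28. With normexp the log2 changes of these 3 probes after AdipoAI were -0.57, -0.53 and -0.5. The resting and stimulated arrays overlapped for none of these 6 probes, and none had an interaction with an adjusted p under 0.05. Their interactions lay between -0.99 and 0.51 on the log2 scale.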

How the data were processed

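The report rests on 12 1-colour arrays of RAW264.7 RNA, grouped by the sample labels. The authors' deposited scanner files give each spot's linear intensity after background subtraction, made with Agilent Feature Extraction 11.0.1.1 as the submitters' processing notes name it, before any normalization across arrays. A second deposited file gives the authors' quantile-normalized log2 values and served as an alternative. Its columns correlated with the log2 scanner intensities at r of 0.988 to 0.995.

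Control spots (1439), spots named as negative (300) and 221 probes with outlier flags were left out. Of the 15 probes with 20 spots each, flagged spots were dropped and the others averaged. No probe was saturated. Quantile normalization of the log2 intensities covered all 12 arrays. Probes well above background on 3 or more of the 6 AdipoAI and AdipoAI+LPS arrays entered 1 limma fit of the 4 group means (8 residual degrees of freedom), with Benjamini-Hochberg adjustment over all 31056 probes. The 3 arrays per group limit the precision. The named probes were all those with RefSeq names, matched through the table of GRCm38.p6, 2 maker's identifiers that rose and 2 that fell (the largest and the most damped), and the 3 largest rises and falls among lincRNA-named probes. Prepared gene lists and cell type markers were not used, since nothing used here pairs the probes with genes. Members, lists and thresholds were chosen with earlier results of these data known. Alternatives changed the normalization, background, values, filter, variance model, fold limit or choice of responsive probes, added the replicate number or the scan as a block, or left out single arrays. Promoter windows came from RefSeq, which had an entry for 13 of the 15 genes with RefSeq names. The fit was tested on simulated data. It called most built-in interactions of log2 size 2 but missed most of log2 size 1. The simulated interactions lay in fewer probes than were called in the data, so this recovery need not hold for the data. A probe not shown to differ may still differ by a log2 size of 1. R 4.3.3 with limma 3.58.1, and Python 3.11.15 with matplotlib 3.10.9, were used.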

Additional observations from a re-analysis of the deposited data

Results flagged for a closer look

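The LPS change differed with and without AdipoAI, by the test of the interaction in limma at an adjusted p under 0.05, in 1029 probes. Among the named probes it was higher after AdipoAI by 0.72 on the log2 scale for Gusb, 2.62 for ASMM10P049894 and 0.82 for ASMM10P030040, and it differed by -0.76 for Gk and -5.94 for ASMM10P042364. For ASMM10P021712 the fitted difference of 3.61 rests on LPS arrays that were not well above background. It was at least 1.76 against the lowest signal above background, 0.63 with normexp and 2.85 from the authors' processed values. All DMSO and LPS arrays lay in the first scan and all AdipoAI+LPS arrays in the second, and the part of the scan in these differences beyond the values with AdipoAI replicate 3 was not tested.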

How the results depend on the processing

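With normexp on the median signal there were 863 calls at the methods' threshold, 1580 interaction calls, 994 responsive and 76 enlarged probes and a Pearson r of 0.9022. With a fold change over 1.5 in place of the log2 limit there were 8740 calls, and with a filter on all 6 arrays 1327, with a slope of 0.8162. With the scan as a block, and equally within the second scan, 6832 probes had an adjusted p under 0.05, the median ratio of lowered probes was 0.7595 and r was 0.8389. Without each array in turn the interaction was called in 657 to 1012 probes (657 without DMSO replicate 2 and 661 without LPS replicate 3) and r lay between 0.8577 and 0.8748. Responsive probes numbered 15270 at an adjusted p with no fold limit (652 damped, median ratios 0.828 raised and 0.8164 lowered), 9385 at a fold change over 1.5 (631 damped, 0.8553 raised) and 1523 when restricted, after seeing the data, to probes well above background on all 12 arrays. Chosen on AdipoAI+LPS vs. AdipoAI alone, 246 were damped and the median ratios were 0.996 and 0.8799, and chosen on LPS vs. DMSO alone they were 0.8007 and 0.7345. Least squares gave slopes of 0.7602 and, inverted, 0.9903. With a filter on 3 of the 12 arrays r was 0.8543 and with none 0.7518, and 962 interaction calls were shared with the former. The causes of these shifts were not tested, apart from the fewer or more probes that a limit or filter leaves.

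Values near 0 that were not called changed sign. With 1 array left out the LPS change after AdipoAI lay between -0.10 and 0.05 for Tbp and between -0.04 and 0.07 for Tfrc, and the interaction between -0.13 and 0.04 for Hsp90ab1, -0.29 and 0.01 for Tbp and -0.02 and 0.03 for Ppia. Sign changes were also seen in the interactions of Ppia (-0.04) and Rpl13a (-0.03) at the 75th percentile, of Ppia (-0.02) with normexp, and of Gapdh (0.01) and Rpl13a (-0.01) with the scan as a block. The interaction of humanlincRNA1094-_P1, -0.37 and not called, lay between -1.05 and 0.01 with 1 array left out and was 0.06 with normexp. G6pd2 passed an adjusted p of 0.05 after AdipoAI at the 75th percentile, with normexp, without AdipoAI replicate 2 and without LPS replicate 1.

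Replicate numbers did not pair the arrays. The deviations of 18 same-numbered pairs correlated between -0.207 and 0.158, and 0 of the 12 arrays was closest to one of its own number. With a replicate block there were 2095 calls at the methods' threshold, 9908 at an adjusted p under 0.05, 715 interaction calls, 319 damped and 99 enlarged probes, and the interactions of Gk (adjusted p 0.0731) and Gusb (0.0552) were no longer called.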
